A study of Mus musculus with 2 samples.

Results

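The ribosome biogenesis factors described here are 43 genes whose products make ribosomal RNA, modify it and build it into ribosomal subunits. They were taken by gene symbol from the 32285 genes of the count files, and all 43 symbols were found. No measured value entered the rule, but the list was chosen with earlier results of these data known. By role they comprised 7 genes of RNA polymerase I transcription (Tcof1, Polr1a, Polr1b, Polr1c, Polr1d, Ubtf and Rrn3), 7 core proteins of small nucleolar ribonucleoproteins (snoRNPs: Fbl, Nop56, Nop58, Dkc1, Nop10, Nhp2 and Gar1) and 8 small subunit factors (Wdr43, Wdr75, Utp20, Heatr1, Nop14, Rrp9, Rrp12 and Bysl). A further 16 were large subunit factors (Bop1, Pes1, Wdr12, Nop2, Nop16, Noc2l, Gnl3, Gnl2, Nle1, Ddx18, Ebna1bp2, Nip7, Mrto4, Ftsj3, Rrp1b and Rrs1), and 5 were nucleolar proteins with several roles (Ncl, Npm1, Nolc1, Ddx21 and Mybbp1a).

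Ribosomes are assembled mainly in the nucleolus. RNA polymerase I transcribes a long precursor RNA there, snoRNPs guide its methylation and pseudouridylation, and separate sets of assembly factors fold, cut and export the small and the large subunit. Demand for ribosomes is high in growing and dividing cells and lower in cells that have left the cycle, and mutations of TCOF1, POLR1A, POLR1B, POLR1C or POLR1D in people cause facial dysostoses, which arise in the cranial neural crest.

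Single-cell RNA sequencing had been carried out on GFP-positive cells sorted from mouse embryo heads at E11.5 to ask how loss of the transcription factors TFAP2A and TFAP2B alters cranial neural crest cells (CNCCs). Control embryos were wt/flox at both Tfap2a and Tfap2b, and mutant embryos were flox/flox at both, so that each control cell retained an allele of each gene that Cre could not delete. Both groups carried Wnt1CRE and were r26 mTmG/mTmG, a reporter that turns from membrane Tomato to membrane GFP after recombination. Each genotype was 1 library of 2 pooled sibling embryos on a mixed background, so no test between genotypes was possible. Wnt1:CRE is active in the crest before migration and also in the dorsal neural tube, and brain cells therefore accompanied the CNCCs in both libraries.

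The study's filters kept 5625 of 6148 control barcodes (82313680 UMIs, unique molecular identifiers that each mark 1 captured RNA molecule; median 13478 per cell) and 5587 of 6063 mutant barcodes (77251738 UMIs, median 12234). Clustering without the members and related genes gave 4 classes in both libraries, which were named from marker genes. These were mesenchyme-like (3757 control and 2814 mutant cells), neuron-like (837 and 1327), brain progenitor-like (770 and 1243) and glia-like cells (261 and 203). All 7 mesenchyme markers peaked in the mesenchyme-like class and all 6 glia markers in the glia-like class in both libraries. Of 7 neuron markers, 5 (control) and 6 (mutant) peaked in the neuron-like class and 2 and 1 in the glia-like class. Of 7 brain progenitor markers, 6 and 5 peaked in the brain progenitor-like class and 1 and 2 in the neuron-like class. Summed markers of endothelium, epithelium and macrophages stayed at or below 19.4 CPM in every class, where CPM are the UMIs of a gene or list for each 1000000 UMIs of the class. Blood was the exception, with 69847 haemoglobin UMIs in the control library against 161 in the mutant library, carried mostly by 5 control barcodes in the neuron-like class. Xist was detected in 98.8% of control cells and 0.107% of mutant cells, while Y-linked transcripts were found in 2 control cells and 82.0% of mutant cells, so embryo sex and genotype cannot be told apart. The libraries shared 6 cell barcodes.

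Promoters were examined for what the members share in sequence. RefSeq promoters (GRCm38.p6, from 250 bases before to 50 bases after each start) were found for 36 of the 43 members and comprised 45 start sites. The E-box CACGTG, bound by Myc-Max dimers, was present in 15.6% of member promoters (7 of 45) and in 7.15% of all 32851 promoters. The TFAP2-type palindrome GCCNNNGGC was present in 22.2% of member promoters (10 of 45) and in 16.6% of all. Both motifs read the same on both strands, can share no more than an end base with each other, and were counted as letters only. Member promoters also had more G and C than all promoters (median 59.0% against 52.7%), a property that moves with the frequency of G- and C-rich motifs. The 250 bases before the start are given below, 5′ to 3′ on the strand of the gene, with a motif in capitals, for the single member with its highest level in neurons (Rrn3, chr16:13780449-13780698, plus strand, E-boxes 215 and 48 bases before the start), a large subunit methyltransferase (Nop2, chr6:125131633-125131882, plus strand, E-box 60 bases before the start), a member with the TFAP2-type motif (Ncl, chr1:86359456-86359705, minus strand, 59 bases before the start) and the member that was lower in mutant cells most widely (Nop10, chr2:112261676-112261925, plus strand, neither motif).
Rrn3: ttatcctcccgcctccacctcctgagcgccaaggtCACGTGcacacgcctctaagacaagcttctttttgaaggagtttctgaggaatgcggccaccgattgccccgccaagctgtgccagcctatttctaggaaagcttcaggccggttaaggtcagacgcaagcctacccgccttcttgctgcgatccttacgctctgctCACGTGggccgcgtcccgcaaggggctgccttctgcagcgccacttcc
Nop2: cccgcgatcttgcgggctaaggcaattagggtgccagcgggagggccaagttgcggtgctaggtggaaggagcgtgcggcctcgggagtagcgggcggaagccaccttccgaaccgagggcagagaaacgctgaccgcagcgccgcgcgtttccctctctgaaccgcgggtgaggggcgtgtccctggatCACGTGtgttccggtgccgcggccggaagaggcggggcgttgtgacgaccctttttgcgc
Ncl: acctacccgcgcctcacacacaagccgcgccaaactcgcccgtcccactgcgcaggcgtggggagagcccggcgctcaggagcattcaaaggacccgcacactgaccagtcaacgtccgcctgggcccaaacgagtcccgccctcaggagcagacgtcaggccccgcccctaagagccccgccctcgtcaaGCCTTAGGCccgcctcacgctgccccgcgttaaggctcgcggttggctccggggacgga
Nop10: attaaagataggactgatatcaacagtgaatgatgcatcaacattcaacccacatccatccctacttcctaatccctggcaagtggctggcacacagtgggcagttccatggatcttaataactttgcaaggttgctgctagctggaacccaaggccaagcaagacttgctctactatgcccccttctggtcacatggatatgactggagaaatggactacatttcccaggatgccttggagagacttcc

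Levels differed most between cell classes. Summed over the 43 members, the control library held 8013 CPM in mesenchyme-like, 8027 in brain progenitor-like, 8052 in glia-like and 4001 in neuron-like cells. The mutant library held 7715, 7946, 7175 and 3674 CPM in the same order. Neurons therefore stood lowest in both libraries. In the control library the other 3 classes were alike, with exact 95% Poisson intervals that overlapped (7990 to 8036, 7970 to 8084 and 7975 to 8131 CPM), whereas in the mutant library the glia-like class lay below the mesenchyme-like class and the mesenchyme-like class below the progenitors without overlap. All intervals given here cover counting error only.

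**Figure D1:**
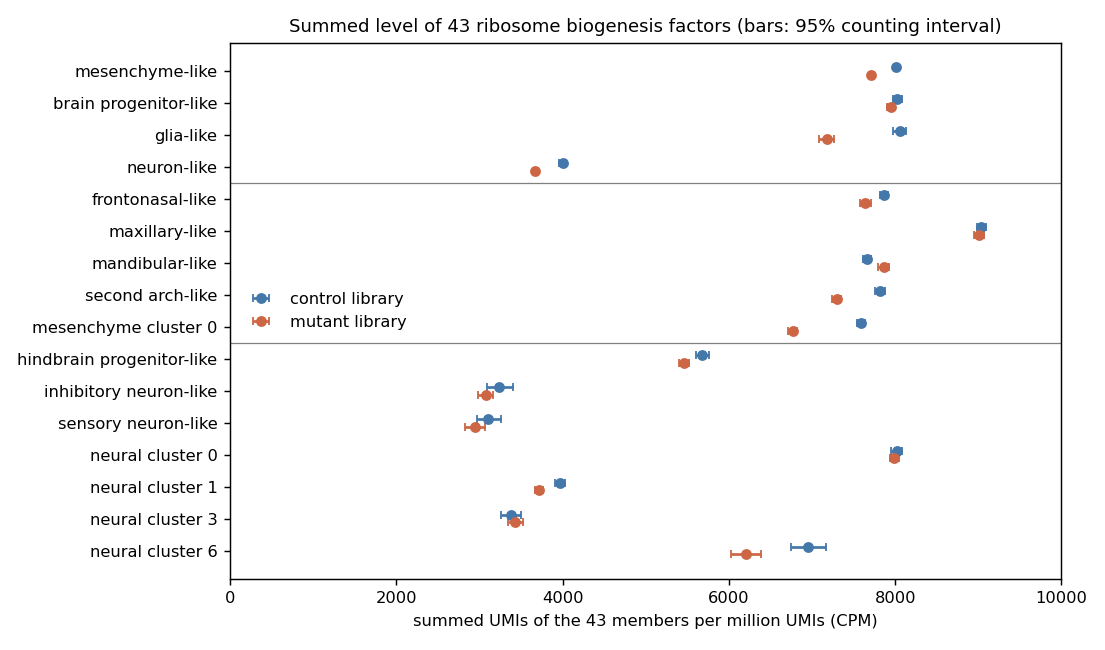
Summed level of the 43 members, as CPM, in each class and cluster, in the control and the mutant library (points; bars, exact 95% counting intervals). Neuron-rich groups lie near or below 4001 CPM in the control library and maxillary-like mesenchyme is highest at 9036 and 9010 CPM.

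On the log2 scale, the summed level in mesenchyme-like over neuron-like cells was 1.00 in the control library and 1.07 in the mutant library. The ratio was 1.00 and 1.11 for brain progenitor-like cells and 1.01 and 0.97 for glia-like cells. A total of 30 members were at least 1.5-fold higher in mesenchyme than in neurons in both libraries, 1 was lower and 12 lay between, where 23.7% of the 11664 genes with enough counts were higher and 21.9% lower. For brain progenitor-like cells 35 members were higher and 1 lower (background 20.9% and 20.5%), and for glia-like cells 27 of the 41 members with enough counts were higher and 1 lower (background 13.6% and 23%). Median member ratios over neurons in the control library were 0.89, 0.99 and 0.83 for mesenchyme, progenitors and glia, against 0.027, 0.069 and -0.11 over all genes. In control mesenchyme over neurons the contrast was widest for the nucleolar proteins with several roles (1.23) and narrowest for the RNA polymerase I genes (0.42).

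Among single members, the snoRNP pseudouridine synthase Dkc1 stood out, with 59.6 CPM in control neurons and 185 CPM in control progenitors (log2 1.64) and a ratio of 1.74 in the mutant library. Its partner in H/ACA snoRNPs, Gar1, gave the highest ratio of progenitors over neurons at 1.70 and 1.81. The nucleolar GTPase Gnl3 (nucleostemin) followed at 1.57 and 1.59, and Utp20, a scaffold of early small subunit precursors, at 1.46 and 1.504. These 4 genes had the highest ratios when both libraries were averaged, although in the mutant library alone Rrs1 (1.52) and Nle1 (1.51) were level with Utp20. In mesenchyme over neurons the highest members by the same average were Tcof1, which encodes the nucleolar protein treacle (1.41 and 1.47), Dkc1 (1.38 and 1.45), Utp20 (1.37 and 1.48) and the nucleolar chaperone Npm1 (1.31 and 1.44). Gnl3 (1.38 and 1.37) was close behind, and Polr1b was as high in the control library alone (1.39 and 0.93).

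Rrn3 ran the other way. It encodes the factor that joins RNA polymerase I to its promoter. Its level was 74.1 CPM in control and 73.3 CPM in mutant neurons, against 35.7 and 39.1 in mesenchyme, 41.6 and 45.0 in progenitors and 39.9 and 34.3 in glia. Neurons were highest in both libraries. The log2 ratio of mesenchyme over neurons was -1.05 (-1.18 to -0.93) in the control and -0.91 (-1.02 to -0.80) in the mutant library. Rrn3 was also highest in neuron clusters taken singly, with 88.0 and 82.2 CPM in the Sim1-led neurons (neural cluster 3), 86.5 and 81.2 in sensory neuron-like and 82.0 and 79.1 in inhibitory neuron-like cells. Members with the smallest contrasts otherwise were the large subunit GTPase Gnl2 (0.18 and 0.09 in mesenchyme over neurons), the polymerase I architectural factor Ubtf (0.28 and 0.34), the large subunit factor Bop1 (0.32 and 0.26) and the small subunit factor Nop14 (0.45 and 0.48 in progenitors over neurons).

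**Figure D2:**
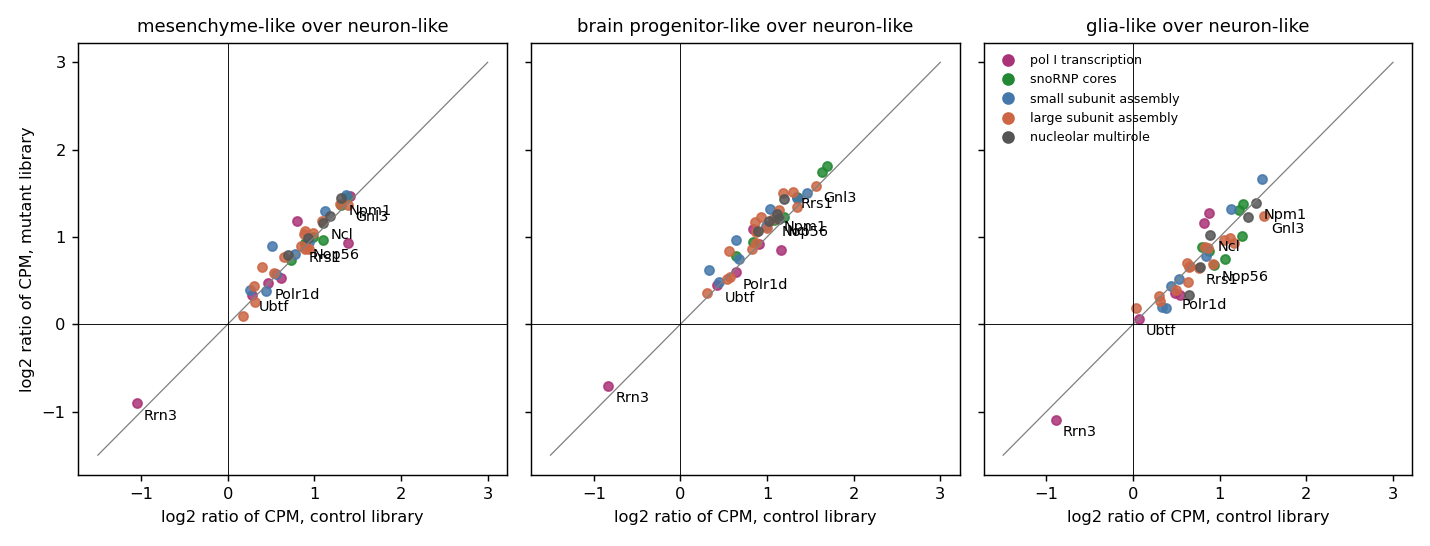
Each point is 1 member, with its log2 ratio of CPM over neuron-like cells in the control library (x axis) and in the mutant library (y axis), for 3 classes, coloured by role; the diagonal marks equal ratios. Most points lie above 0 on both axes, and Rrn3 lies below 0 on both in each panel.

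Cell cycle phase moved with these levels. Phase was called from scores of S and G2M genes that include no member. The scores compared these genes with genes of similar mean level over all pooled cells. A cell was called G1 where neither score was above 0. The label therefore does not separate cycling cells in G1 from cells that have left the cycle. Cells called G1 in different classes need not be in the same state. The G1 share of mesenchyme-like cells was 5.02% (control) and 7.50% (mutant), against 83.1% and 83.6% of neuron-like cells. With every cell thinned to 5000 UMIs, members gave a mean of 38.5 UMIs per control mesenchyme cell, 39.1 per progenitor, 39.3 per glial cell and 19.2 per neuron, so the gap between classes was present at equal depth. Within cells called G1 the control means were 26.8 for mesenchyme, 28.1 for progenitors, 30.8 for glia and 17.7 for neurons. From unthinned sums, the log2 ratio of mesenchyme over neurons in G1 cells was 0.66 (control) and 0.69 (mutant), smaller than over all phases but above 0. Within every class and library, G1 cells had the lowest mean, and neurons called S had 26.5 and 30.0 UMIs.

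**Figure D3:**
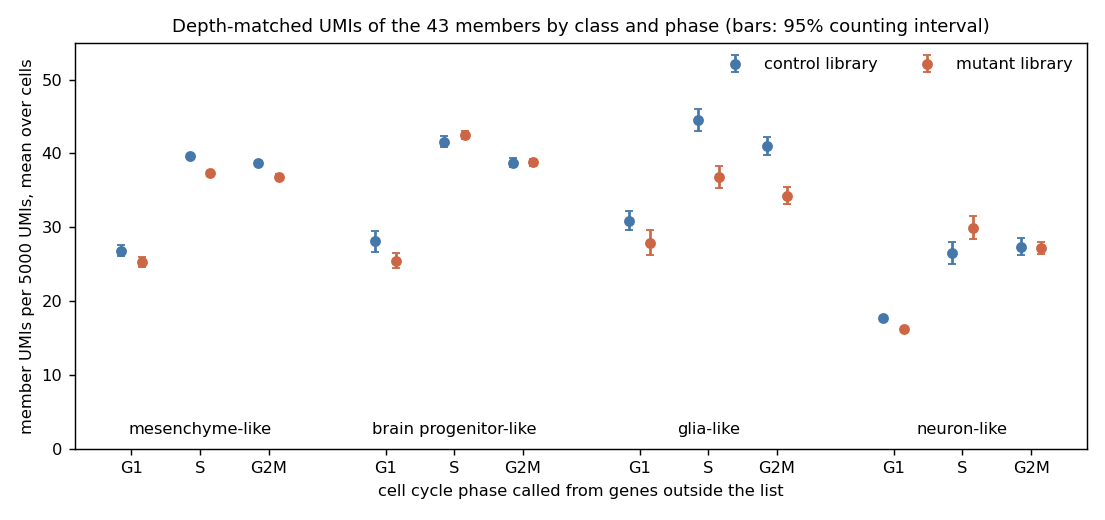
Mean member UMIs per cell after thinning each cell to 5000 UMIs, by class and by cell cycle phase, in control and mutant libraries (bars, 95% counting intervals). G1 cells lie lowest in each class, and neuron-like cells lie below the other classes in each phase.

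Between genotypes the differences were small. The log2 ratio of the summed members, mutant over control, was -0.055 in mesenchyme-like cells (interval -0.061 to -0.048), -0.12 in neuron-like (-0.14 to -0.10), -0.015 in brain progenitor-like (-0.028 to -0.0015) and -0.17 in glia-like cells (-0.19 to -0.14). With cells thinned to 5000 UMIs the ratio came to -0.090 for mesenchyme, -0.082 for neurons and -0.21 for glia, each outside the counting interval of the unthinned value. The median over members was -0.085, -0.13, -0.0044 and -0.24 in that order, against 0.016, 0.025, -0.0044 and 0.014 over all genes tested. In mesenchyme 38 of 43 members had a ratio below 0, where 44.3% of all genes did, and in neurons 37 of 43 did (background 42.5%). In glia 37 of the 41 members with at least 100 UMIs had a ratio below 0 (background 47.6%), and in progenitors 23 of 43 (background 51.6%). The members thus leaned towards the control library in mesenchyme, neurons and glia and were balanced in progenitors.

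Members past 1.2-fold were few in mesenchyme and progenitors and more frequent in neurons and glia. In mesenchyme 2 members were at least 1.2-fold lower (Rrs1 and Polr1b; background 3.64% of genes) and 1 was at least 1.2-fold higher (Noc2l; background 8.83%). In neurons 8 were lower (background 4.68%) and 0 higher (background 8.64%). Among these 8, the intervals of Heatr1, Nop2 and Rrp12 included 0. In progenitors 0 were lower (background 4.82%) and 0 higher (background 5.86%). In glia, with the fewest cells, 18 of 41 were lower (background 15.4%) and 1, Tcof1, was higher (background 16.8%). Among these 18, the intervals of Bysl and Nop2 included 0. The glia-like class also differed between libraries in other ways. Its 7 neuron markers summed to 2855 CPM in control and 444 CPM in mutant cells with none at 0, its doublet calls were 4.21% and 9.36%, and its G1 share was 27.4% and 18.8%. The part of these differences in the glial ratios was not tested.

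**Figure D4:**
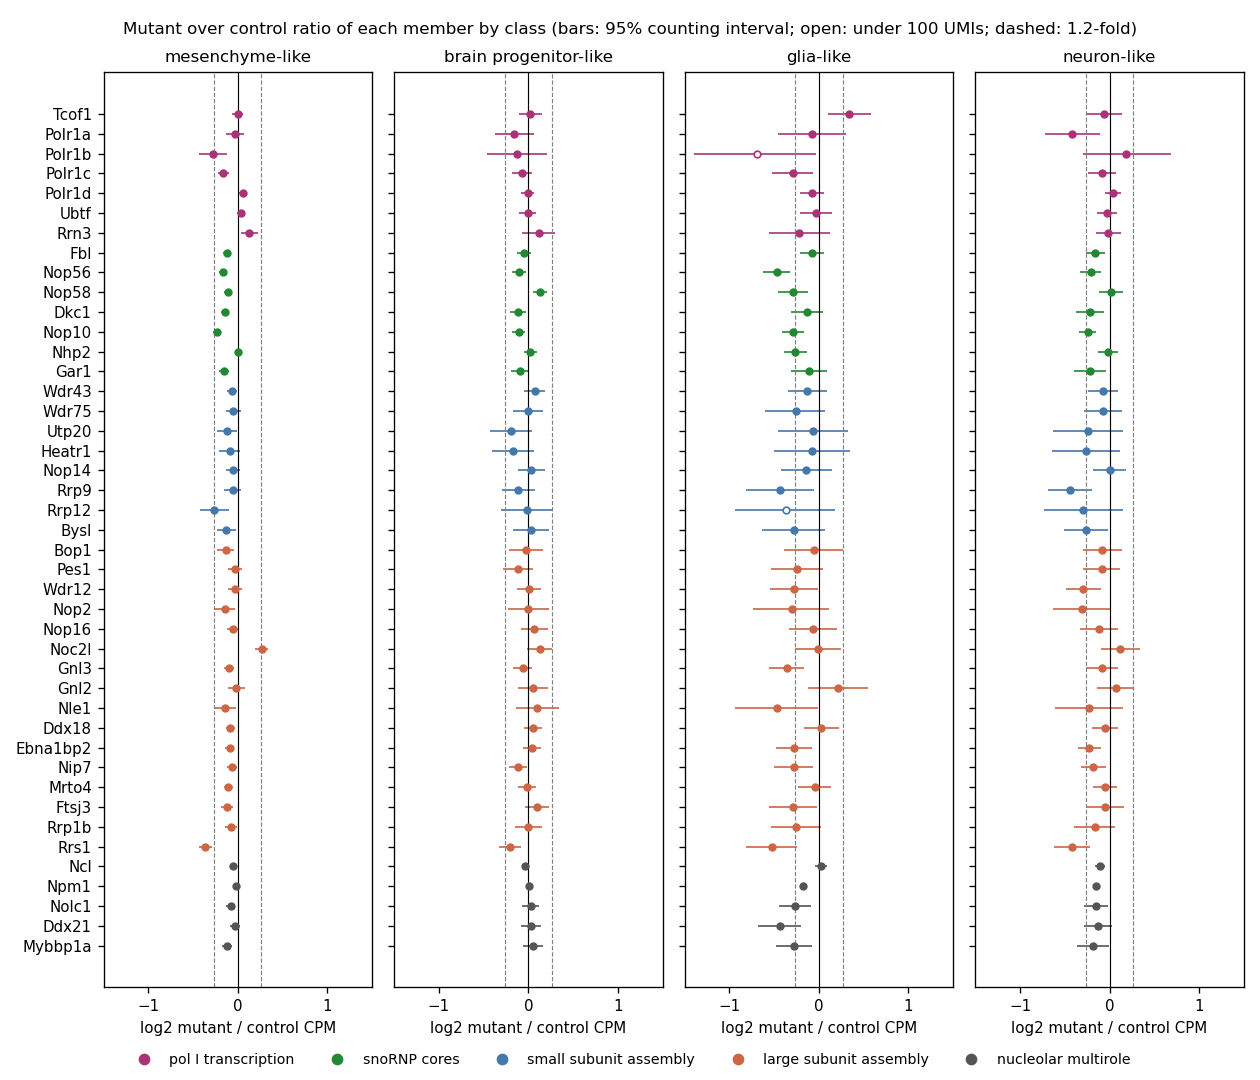
Log2 ratio of CPM, mutant over control, for each of the 43 members in the 4 classes, ordered and coloured by role (bars, 95% counting intervals; open points, under 100 UMIs; dashed lines, 1.2-fold). Ratios cluster just below 0 in mesenchyme, neurons and glia and around 0 in progenitors.

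The RNA polymerase I genes as a group did not lean to either library in mesenchyme, with 661 CPM in control and 664 CPM in mutant cells (log2 0.0055, interval -0.017 to 0.027). Their sums gave -0.020 in neurons, -0.016 in progenitors and -0.066 in glia, each with an interval that included 0. Tcof1 was level in mesenchyme at 92.0 and 91.7 CPM and in progenitors at 89.0 and 90.3 CPM. It was the 1 member past 1.2-fold upwards in glia, with 63.4 CPM in control and 80.3 CPM in mutant cells (log2 0.34, interval 0.10 to 0.58). Polr1a, the largest subunit of the enzyme, was level in mesenchyme (30.6 and 30.0 CPM) and lower in mutant neurons (17.6 and 13.2 CPM, log2 -0.42, -0.72 to -0.11). Polr1b, the second subunit, was scarce, at 15.6 and 12.9 CPM in mesenchyme (log2 -0.27, -0.43 to -0.12). Polr1c and Polr1d, subunits shared with RNA polymerase III, parted in mesenchyme, where Polr1c measured 92.5 and 82.6 CPM (log2 -0.16, -0.22 to -0.10) and Polr1d 245 and 255 CPM (0.054, 0.018 to 0.090). Ubtf was close to level in all 4 classes, at 149 and 153 CPM in mesenchyme and 123 and 121 CPM in neurons. The genes tied to facial dysostosis therefore showed no shared direction in mesenchyme, with Polr1b and Polr1c below 0, Polr1d above 0 and Tcof1 and Polr1a at intervals that included 0.

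The snoRNP core proteins leaned furthest as a group. Their sum was 1413 CPM in control and 1287 CPM in mutant mesenchyme (log2 -0.13, -0.15 to -0.12), and the ratio was -0.15 in neurons, -0.042 in progenitors and -0.24 in glia, all with intervals below 0. Nop10, the smallest protein of H/ACA snoRNPs, was 270 and 229 CPM in mesenchyme (log2 -0.24, -0.27 to -0.20). It measured 163 and 138 CPM in neurons, 254 and 236 in progenitors and 300 and 246 in glia. The control library was thus higher in every class, and each interval lay below 0. After thinning to 5000 UMIs, Nop10 was detected in 73.1% of mesenchyme cells in the control and 65.8% in the mutant library and in 54.9% and 49.3% of neurons, while the unthinned shares in mesenchyme were 94.0% and 90.9%. Nop56, a core protein of the C/D snoRNPs that methylate RNA, was 211 and 187 CPM in mesenchyme (-0.17) and 217 and 157 CPM in glia (-0.47, -0.63 to -0.32), with intervals below 0 in all 4 classes. The methyltransferase Fbl was 264 and 242 CPM in mesenchyme (-0.13, -0.16 to -0.09). Nhp2, another H/ACA protein, was level in mesenchyme at 223 and 224 CPM and lower in mutant glia at 271 and 226 CPM. Dkc1, the only member on the X chromosome, had ratios of -0.14, -0.22, -0.12 and -0.13 in mesenchyme, neurons, progenitors and glia, and since the libraries differ in embryo sex its genotype difference cannot be told apart from a sex difference.

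Small subunit factors summed to 340 CPM in control and 322 CPM in mutant mesenchyme (log2 -0.080, -0.11 to -0.049), with -0.15 in neurons, -0.013 in progenitors and -0.20 in glia. Wdr43, a transcription-coupled processome protein, was 98.1 and 93.9 CPM in mesenchyme. Nop14 was 59.2 and 57.0 CPM, so both abundant factors were near level there. Rrp12, a factor for export of the precursor, was at 14.3 and 11.9 CPM in mesenchyme (-0.26, -0.42 to -0.10), just short of 1.2-fold. Rrp9, a U3 snoRNP protein, was level in mesenchyme (38.0 and 36.5 CPM) and lower in mutant neurons at 26.7 and 19.7 CPM (-0.44, -0.69 to -0.19) and in mutant glia at 36.1 and 26.8 CPM (-0.43, -0.81 to -0.06). In progenitors the widest ratios of the group were those of Utp20, at 28.3 and 24.7 CPM (-0.20), and of Heatr1, a factor of early processing, at 28.3 and 25.1 CPM (-0.17), and both intervals included 0. Rrp9 overlaps Parp3 in the annotation, so its reads are uncertain where counting did not separate strands.

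Large subunit factors summed to 1177 CPM in control and 1112 CPM in mutant mesenchyme (log2 -0.082, -0.099 to -0.066), with -0.13 in neurons, -0.0095 in progenitors and -0.19 in glia. Rrs1, which helps to bring the 5S ribonucleoprotein into the large subunit, differed most. It was 70.1 and 54.5 CPM in mesenchyme (-0.36, -0.44 to -0.29), 39.0 and 29.2 CPM in neurons (-0.42, -0.62 to -0.21), 96.4 and 83.5 CPM in progenitors (-0.21, -0.33 to -0.08) and 66.0 and 45.7 CPM in glia (-0.53, -0.82 to -0.25). Control levels were thus above mutant levels in all 4 classes. At 5000 UMIs per cell, Rrs1 was detected in 28.5% (27.1 to 30.0) of mesenchyme cells in the control and 22.3% (20.8 to 23.9) in the mutant library, in 17.8% and 12.5% of neurons and in 36.8% and 32.0% of progenitors. Glia did not show this at equal depth, with 22.0% and 22.3% thinned against 61.7% and 45.8% unthinned, and the thinned log2 ratio of Rrs1 in glia was -0.08. No class lacked the members, so no share from a class without expression could be set beside these.

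Noc2l, a partner in export of large subunit precursors, had the largest ratio above 0 in mesenchyme. It was 52.5 and 63.1 CPM in mesenchyme (0.27, 0.19 to 0.34), 28.4 and 30.9 CPM in neurons, 72.0 and 78.6 CPM in progenitors and 61.7 and 61.3 CPM in glia, so the mutant library was higher beyond counting error in mesenchyme only among these 4 values. Noc2l overlaps Samd11, and its reads carry the same uncertainty on strand as those of Rrp9. So do those of all 18 members that overlap another gene, among them Nop56, Dkc1, Nhp2, Nle1, Gnl3 and Polr1a. The most abundant factors of the group, Mrto4 (151 and 141 CPM in mesenchyme, -0.11) and the helicase Ddx18 (124 and 117 CPM, -0.09), lay slightly lower in the mutant library. Nip7 was 114 and 109 CPM (-0.07) and, with Nop10, Nop56 and Rrs1, made up the 4 members whose intervals lay below 0 in all 4 classes (background 0.917%). When cells were thinned, however, Nop56 came to 0.027 and Nip7 to -0.0031 in progenitors, and Rrs1 to -0.08 in glia. In glia the widest ratios after Rrs1 and Nop56 included that of Nle1, a factor of late large subunit maturation, at 24.5 and 17.7 CPM (-0.47, -0.94 to -0.01). Of the 41 members with enough counts in all 4 classes, 18 had ratios below 0 in each (718 of 6218 genes in the background).

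Npm1 and Ncl, the major nucleolar chaperones, supplied more UMIs than any other member. Npm1 was 3045 and 3011 CPM in mesenchyme (-0.016), 1226 and 1108 CPM in neurons (-0.15), 2646 and 2648 CPM in progenitors (0.0013) and 3286 and 2900 CPM in glia (-0.18, -0.22 to -0.14). Ncl was 1022 and 984 CPM in mesenchyme, 475 and 441 CPM in neurons (-0.11), 1047 and 1019 CPM in progenitors and 883 and 895 CPM in glia. The chaperones thus differed little in mesenchyme and progenitors, and Ncl was level in glia where Npm1 was lower. Without them the summed ratio was -0.085 in mesenchyme, -0.11 in neurons, -0.019 in progenitors and -0.20 in glia.

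The mesenchyme divided into 5 clusters and a sixth small mixed one, whose cells were largely called doublets (76.7% in the control and 69.0% in the mutant library) and which is not described further. The clusters were frontonasal-like (789 control and 501 mutant cells), maxillary-like (646 and 470), mandibular-like (773 and 412), second arch-like (683 and 705) and an unnamed one led by Tfap2b, Zic1, Tagln and Vtn (823 and 642 cells, called mesenchyme cluster 0). Maxillary-like cells had the highest summed level in both libraries, 9036 and 9010 CPM (log2 -0.0042, -0.017 to 0.0088). Cluster 0 had 7590 and 6768 CPM (-0.17, -0.18 to -0.15), second arch-like cells 7816 and 7299 CPM (-0.099) and frontonasal-like cells 7864 and 7641 CPM (-0.041). Mandibular-like cells went the other way with 7661 and 7860 CPM (0.037, 0.021 to 0.053). The maxillary-like and mandibular-like values rested on the abundant Npm1 and Ncl. Without them the ratio was -0.036 (-0.055 to -0.017) in maxillary-like and -0.0093 (-0.032 to 0.013) in mandibular-like cells, so the sign in the mandibular-like cells was not kept, and it was -0.20 in cluster 0, -0.12 in second arch-like and -0.064 in frontonasal-like cells. With or without the chaperones, the lower sum in mutant mesenchyme lay mainly in cluster 0 and the second arch-like cells.

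Counts of members were also highest in cluster 0. There, 39 of 43 members had ratios below 0 (background 49.3%) and 14 were at least 1.2-fold lower (background 8.78%). In second arch-like cells 35 were below 0 (background 44.8%) and 5 past 1.2-fold (background 5.24%), and in frontonasal-like cells 31 (background 48.1%) and 3 (background 5.46%). In maxillary-like cells 24 were below 0 (background 47%) and 1 past 1.2-fold (background 5.27%), and in mandibular-like cells 22 (background 55.3%) and 3 (background 9.09%). At 5000 UMIs per cell the member mean was 36.1 in control and 31.1 in mutant cells of cluster 0, 37.8 and 34.3 in second arch-like, 38.1 and 37.0 in frontonasal-like, 37.5 and 37.8 in mandibular-like and 44.0 and 43.6 in maxillary-like cells.

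Cycling shares moved with these values. Cells called S or G2M made up 89.8% of control and 83.1% of mutant cells in cluster 0 and 95.3% and 90.1% in the second arch-like cluster. The shares were 97.8% and 95.9% in frontonasal-like, 99.1% and 98.9% in maxillary-like, and 93.5% and 97.6% in mandibular-like cells, the single cluster in which mutant cells had the larger share. Within S phase the summed ratio was still -0.18 in cluster 0, -0.073 in second arch-like, -0.061 in frontonasal-like, 0.063 in mandibular-like and 0.0010 in maxillary-like cells, so the order of clusters was retained among S phase cells. Among G2M cells the mandibular-like ratio was -0.0022 with an interval that included 0. The few G1 cells did not keep the order, with -0.068 in cluster 0, -0.071 in second arch-like, 0.057 in frontonasal-like, -0.10 in mandibular-like and -0.060 in maxillary-like cells, and only the interval of cluster 0 left out 0.

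Single members did not all follow the order of the clusters seen in the sums. Nop10 was the only member with an interval below 0 in all 5 clusters (background 0.93%), with 257 and 223 CPM in cluster 0, 251 and 213 in second arch-like, 270 and 233 in frontonasal-like, 262 and 222 in mandibular-like and 307 and 256 in maxillary-like cells. Its ratios spanned only -0.26 to -0.20, so unlike the sum it did not follow the cluster order. Rrs1 did vary, with 68.8 and 44.7 CPM in cluster 0 (-0.62, -0.80 to -0.44), 78.0 and 55.2 in second arch-like (-0.50), 67.7 and 53.2 in mandibular-like (-0.35), 74.2 and 61.0 in maxillary-like (-0.28) and 63.7 and 58.1 in frontonasal-like cells (-0.13, -0.30 to 0.04). Noc2l was higher in the mutant library with an interval above 0 in 4 of 5 clusters. It was the only such member of 43, a count near the background of 2.73%. Its ratio was widest in maxillary-like cells at 54.5 and 72.2 CPM (0.40, 0.25 to 0.56) and frontonasal-like cells at 51.6 and 66.1 CPM (0.36). In all, 11 members had ratios below 0 in all 5 clusters (Polr1b, Polr1c, Nop56, Nop10, Bop1, Nop2, Gnl3, Nle1, Ddx18, Rrs1 and Mybbp1a) and 2 above 0 in all 5 (Polr1d and Noc2l). Of all genes with enough counts in the 5 clusters, 8.81% were below 0 and 10% above 0 in all of them.

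**Figure D5:**
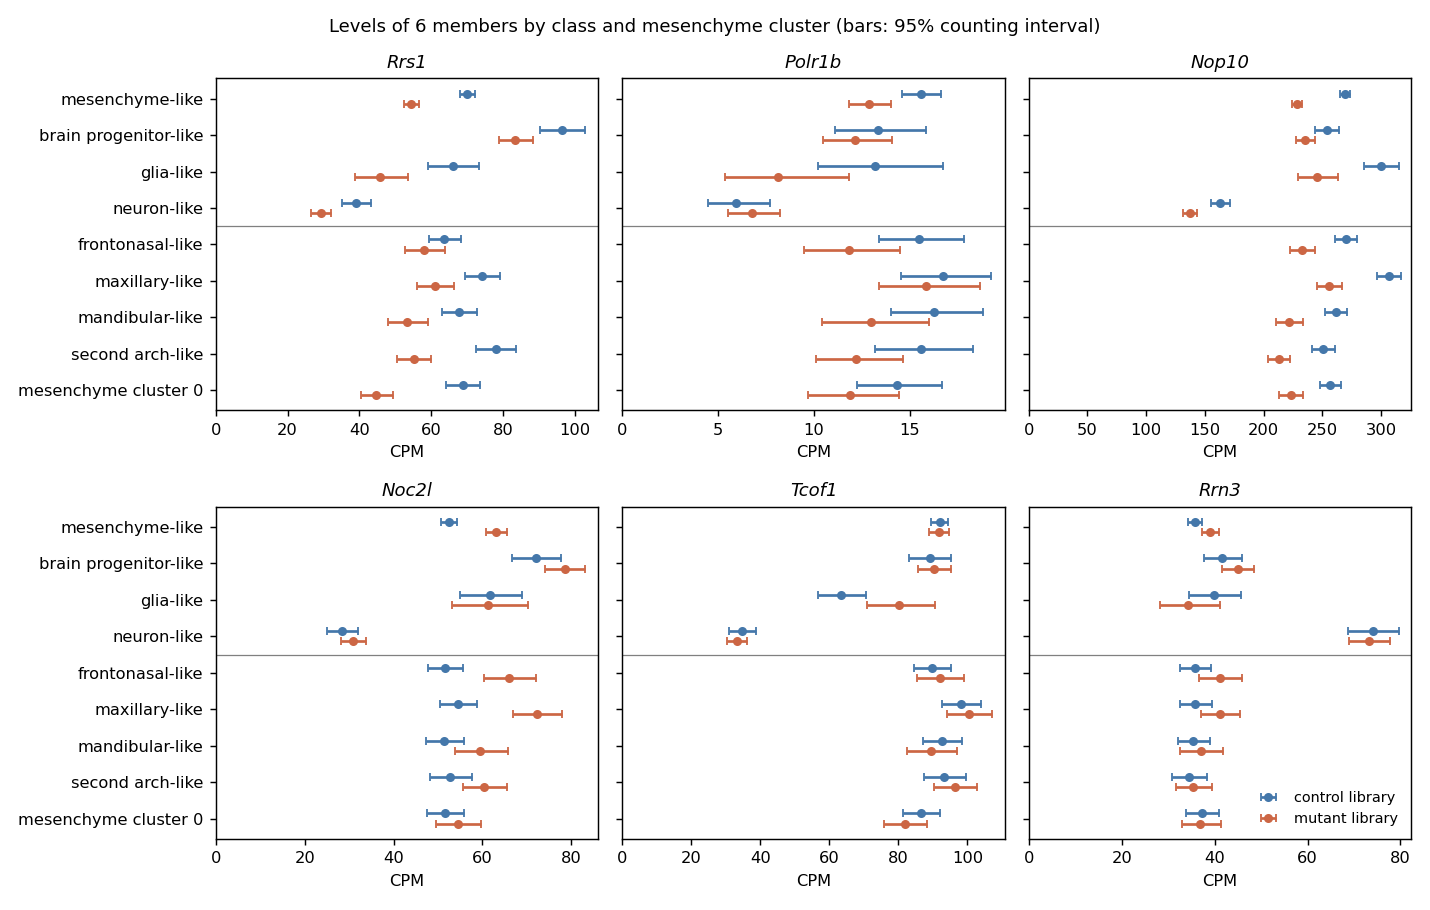
CPM of 6 members in the 4 classes (above the line) and the mesenchyme clusters (below it), in control and mutant libraries (bars, 95% counting intervals; each axis starts at 0). Rrs1 and Nop10 lie lower in the mutant library in most groups, Noc2l lies higher in most mesenchyme clusters, and Rrn3 is highest in neurons.

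Npm1 showed opposite directions between clusters, with 2876 and 2643 CPM in cluster 0 (-0.12) and 2872 and 3084 CPM in mandibular-like cells (0.10, 0.078 to 0.13). It was 3532 and 3618 CPM in maxillary-like cells, the highest level of any member in any cluster. The snoRNP group as a whole gave -0.24 in cluster 0, -0.19 in second arch-like, -0.12 in frontonasal-like, -0.092 in maxillary-like and -0.018 in mandibular-like cells.

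Neural clusters repeated the contrast between progenitors and neurons. The Ttr-, Fgf17- and Fgf8-led progenitors (neural cluster 0) held 8017 and 7990 CPM of members. The hindbrain progenitor-like cells lay between progenitors and neurons at 5678 and 5459 CPM. Their leading genes held the progenitor markers Atoh1, Olig3 and Hoxb2 beside the neuronal factors Evx1 and Barhl1, and 41.1% (control) and 42.9% (mutant) were called S or G2M, so this cluster was not progenitors alone. Neurons held less, with 3971 and 3712 CPM in the Otp- and Tfap2b-led cluster (neural cluster 1), 3374 and 3432 in the Sim1-led cluster, 3240 and 3075 in inhibitory neuron-like and 3107 and 2946 in sensory neuron-like cells. In the control library neighbours among the 3 lowest had overlapping intervals, and in the mutant library the Sim1-led cluster lay above the other pair without overlap. Between genotypes the ratio was -0.0050 in neural cluster 0, -0.097 in neural cluster 1, -0.057 in hindbrain progenitor-like and 0.025 in the Sim1-led cells. It was widest in a small cluster led by Dkk2, Shh and Spon1 (neural cluster 6, 54 control and 72 mutant cells) at 6956 and 6204 CPM (-0.17). Rrs1 in that cluster was 90.1 CPM from 54 UMIs and 38.4 CPM from 28 UMIs, too few to be compared. The cycling share there was 94.2% in control and 72.7% in mutant cells. A further cluster, with doublet calls of 35.5% (control) and 52.2% (mutant), also held the haemoglobin-rich barcodes. Without it, the mixed mesenchyme cluster and those barcodes, the summed ratio in neuron-like cells was -0.089 in place of -0.12.

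The rest of the pathway had smaller median ratios than the members in mesenchyme, neurons and glia. Of 117 other biogenesis genes listed, all passed the count minimum in mesenchyme, where 92 had ratios below 0, 0 passed 1.2-fold in either direction and the median was -0.055. The widest were Rcl1, which processes small subunit precursors (50.8 and 42.4 CPM, -0.26), the large subunit factor Rpf1 (56.4 and 47.7 CPM, -0.24) and Mdn1, the large ATPase of 60S maturation (43.4 and 36.8 CPM, -0.24). The list median was -0.046 in neurons, -0.012 in progenitors and -0.11 in glia, with 6, 3 and 20 genes at least 1.2-fold lower and 0, 2 and 2 higher. The 79 cytosolic ribosomal protein genes, the structural products that these factors assemble, had medians of -0.040, -0.046, 0.0050 and -0.0038 in mesenchyme, neurons, progenitors and glia. In mesenchyme 2 of them were at least 1.2-fold higher, Rps18 (1029 and 1506 CPM, 0.55) and Rps2 (2963 and 3615 CPM, 0.29). Such genes have many processed pseudogenes, so their reads are uncertain. The 78 mitochondrial ribosomal protein genes had medians of -0.031, -0.019, 0.012 and -0.081. The factor lists and both ribosomal protein lists thus had negative medians in mesenchyme and neurons. This was not particular to ribosome genes. The median of the S phase genes was also below 0 in both classes (-0.054 and -0.17), and that of the G2M genes in mesenchyme (-0.064) but not in neurons (0.051).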

How the data were processed

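CNCCs from 1 control and 1 mutant pool of 2 embryos had been sequenced with 10x 3′ chemistry. The authors deposited filtered matrices of UMI counts, whole numbers for each gene in each barcode, made with Cell Ranger 6.0.0 against mm10 and not normalized, and the submitters' notes name Seurat 4.3.0. Barcodes with over 10% mitochondrial UMIs, under 200 or over 7500 genes were left out, as in the study. Libraries were integrated in Seurat 5.3.0 (R 4.3.3) on 2000 variable genes and 30 dimensions (20 for subsets), at resolutions of 0.05 for classes, 0.2 for mesenchyme and 0.1 for neural cells. A total of 457 genes (members, related lists, outcome and sex genes) took no part in clustering. Doublets were called with Scrublet in scanpy 1.11.5 (Python 3.11.15) and kept. Classes were named by the share of cells with a marker UMI, a rule settled with the mesenchyme resolution after clusters were seen. Members and gene lists were chosen with earlier results of these data known. From these libraries the paper lists nucleolus and snoRNA binding among terms enriched in genes lower in mutant mesenchyme.

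UMIs were summed per class and library and divided by all UMIs of that class (CPM). Ratios carry exact conditional binomial, levels exact Poisson and shares Clopper-Pearson 95% intervals, which cover counting error only. Genes with at least 100 UMIs in 1 or both libraries were compared. Cells were thinned to 5000 UMIs (seed 1) to match depth, leaving out shallower cells (51 control and 55 mutant mesenchyme cells, 54 and 77 neurons, 14 and 40 progenitors, 2 and 1 glia). Printed members were the 2 most abundant per role, the dysostosis genes, the 6 largest mesenchyme ratios and 3 in each other class, and the 4 highest and lowest over neurons. Others were added after their values were seen. GENCODE M21 held 32235 of the gene identifiers and showed 18 members overlapping another gene, and the strand setting of the counting is not given in the sources used here. The 3′ tags cannot tell an intact from a recombined floxed allele (Tfap2a 24.8 and 21.1 CPM, Tfap2b 86.4 and 77.8 CPM), so they do not check the genotype. Scripts were tested on simulated data.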

Additional observations from a re-analysis of the deposited data

Results flagged for a closer look

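Several members had mutant over control log2 ratios of opposite sign in a pair of cell groups, with counting intervals that left out 0 on both sides. For each, the group with the largest positive and the group with the most negative such ratio are given. The share of all genes with such a pair was not computed, so the pairs carry no reading about the members as a list. With 1 library per genotype none of these differences was tested. The summed level of all members was 0.037 in mandibular-like mesenchyme (interval 0.021 to 0.053) and -0.17 in mesenchyme cluster 0 (-0.18 to -0.15). Without Npm1 and Ncl the mandibular-like value was -0.0093 (-0.032 to 0.013), so its opposite sign rested on those genes. The chaperone Npm1 followed this with 0.10 in mandibular-like cells (0.078 to 0.13) and -0.12 in mesenchyme cluster 0 (-0.15 to -0.098). The U3 snoRNP protein Rrp9 gave 0.31 in mandibular-like cells (0.096 to 0.53) and -0.25 in mesenchyme cluster 0 (-0.48 to -0.019). The H/ACA protein Nhp2 gave 0.10 in maxillary-like cells (0.027 to 0.18) and -0.18 in mesenchyme cluster 0 (-0.28 to -0.089). The C/D protein Nop58 gave 0.13 in brain progenitor-like cells (0.049 to 0.21) and -0.29 in glia-like cells (-0.45 to -0.13). In 4 of these 5 pairs the negative side was mesenchyme cluster 0, where the share of cells called S or G2M was 89.8% in control and 83.1% in mutant cells, and the part of that share in the ratios of single members was not tested.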

How the results depend on the processing

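The summed ratio in mandibular-like cells reversed to -0.0093 without Npm1 and Ncl, and no other summed ratio of a class or mesenchyme cluster changed sign under the alternatives tried, cells of a single cycle phase aside. The median member ratio in progenitors, near 0, came to 0.0098 thinned to 5000 UMIs. In mesenchyme the summed log2 ratio, mutant over control, was -0.090 thinned to 5000 UMIs, -0.086 with equal weight per cell, -0.099 in cells of 8000 to 20000 UMIs, -0.086 with TMM scaling (trimmed mean of M values), -0.047 with the cell cycle shares of the control library and -0.085 without Npm1 and Ncl. In neurons it was -0.082 thinned, -0.096 in cells of 8000 to 20000 UMIs, -0.14 with TMM, -0.0999 with control cell cycle shares and -0.089 without mixed clusters and haemoglobin-rich barcodes. In glia it was -0.21 thinned, -0.21 with equal weight, -0.24 with TMM, -0.19 without doublets, -0.21 with control cell cycle shares and -0.20 without Npm1 and Ncl. Thinning gave -0.22 in mesenchyme cluster 0, -0.14 in second arch-like and 0.012 in mandibular-like cells, and control cell cycle shares gave -0.14 in cluster 0 and -0.081 in second arch-like cells. Without Npm1 and Ncl cluster 0 came to -0.20, second arch-like cells to -0.12, the frontonasal cluster to -0.064 and the maxillary cluster to -0.036.

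Counts moved with the fold asked for. Lower members at 1.1-fold numbered 10 in mesenchyme, 21 in neurons, 4 in progenitors and 24 in glia (10.1%, 13.1%, 16.1% and 27.1% of all genes). Higher ones numbered 1 in mesenchyme, 1 in neurons, 0 in progenitors and 2 in glia (20.1%, 22%, 15.3% and 30.2%). At 1.5-fold, 0 members were lower in mesenchyme, neurons or glia and 0 were higher in mesenchyme or glia. With at least 300 UMIs asked for, 3 were lower in neurons, by construction, since fewer genes were kept. The share of all genes was not computed at 1.5-fold or at 300 UMIs, so these counts carry no reading about the members.

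Sums over neurons taken in G1 cells only were 0.66 (control) and 0.69 (mutant) in mesenchyme, 0.70 and 0.71 in progenitors and 0.82 and 0.83 in glia. Without Npm1 and Ncl they were 0.78 and 0.81, 0.91 and 1.01, and 0.76 and 0.67 in the same order. Without doublets they were 1.07 and 1.15, 1.08 and 1.201, and 1.08 and 1.02. Without mitochondrial, ribosomal protein and haemoglobin genes in the CPM base they were 1.11 and 1.19, 1.05 and 1.18, and 1.14 and 1.12. Without mixed clusters and haemoglobin-rich barcodes they were 1.097 and 1.13, 1.11 and 1.18, and 1.11 and 1.03. Thinning gave 0.99 in mutant mesenchyme, 1.02 in control progenitors, and 1.03 and 0.90 in glia.

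Of the 172 ratios of single members in the 4 classes, 52 changed sign under 1 or more alternatives, 33 of them when thinned. Past 1.2-fold these were Rrp12 in neurons (0.24 thinned and 0.036 in cells of 8000 to 20000 UMIs) and Nop2 in glia (0.17 thinned). With an interval that left out 0 they were Nop56 in progenitors (0.027 thinned) and Mybbp1a in neurons (0.053 thinned). The causes of these moves were not tested. Leaving out mixed clusters, giving clusters the control cell cycle shares and leaving out Npm1 and Ncl in clusters were chosen after seeing the data. No paired analysis was possible because each genotype was 1 library, and no replicate could be left out. Depth limits the scarce members, such as Polr1b and Rrp12, which had under 100 UMIs in glia.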

Other observations

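Myc family genes, regulators of ribosome production in growing cells, differed by class. In mesenchyme Myc was 14.99 CPM in control and 11.2 CPM in mutant cells (log2 -0.43, interval -0.59 to -0.26) and Mycn was 68.2 and 60.4 CPM (-0.18, -0.25 to -0.10). The list did not lean that way as a whole there. Of its 9 genes 3 were below 0, the median was 0.026 and the sum was level (0.0013, -0.034 to 0.036). Mxi1 (0.21, 0.11 to 0.31) and Mxd4 (0.17, 0.089 to 0.24) were higher in the mutant library. In glia-like cells 4 of the 5 family genes with enough counts were at least 1.2-fold lower in the mutant library, among them Mycn at 111 and 45.4 CPM (-1.29, -1.56 to -1.02) and Mycl at 31.0 and 15.3 CPM (-1.02, -1.502 to -0.55). The glia-like class held neuron markers at 2855 CPM in control and 444 CPM in mutant cells, and their part in these ratios was not tested. In progenitors, where the members were balanced, Mycn was 83.9 and 88.9 CPM and Mycl 97.7 and 103 CPM, with intervals that included 0.

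The list of p53 and its targets, used because failed ribosome assembly can activate p53, was mixed. Trp53 itself was 247 and 226 CPM in mesenchyme (-0.13, -0.16 to -0.089). Its target Cdkn1a, an inhibitor of the cell cycle, was 1.22 CPM from 71 UMIs and 2.82 CPM from 124 UMIs in mesenchyme (1.21, 0.78 to 1.65), 22.4 and 30.7 CPM in neurons (0.46) and 11.3 and 18.6 CPM in progenitors (0.71), so the mutant library was higher in these 3 classes. In glia it had 38 and 52 UMIs, too few to be compared. Ccng1 was 12.1 and 14.9 CPM in mesenchyme (0.31, 0.15 to 0.46), and Mdm2 was level there at 40.6 and 39.5 CPM.

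Cycle genes also differed between libraries. The median of 41 S phase genes was -0.054 in mesenchyme, -0.17 in neurons, -0.095 in progenitors and 0.053 in glia, and that of 54 G2M genes was -0.064, 0.051, -0.060 and 0.15. In glia the median cycle gene was thus higher in the mutant library while the median ribosome biogenesis member was lower.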
